A study of Homo sapiens with 2 samples.

Results

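GAPDH and PFKM encode glycolytic enzymes, and parts of the exons of each lie opposite another gene, AC006064.4 for GAPDH and SENP1 for PFKM. These 4 genes, chosen by their symbols from the 58220 genes measured by RNA-seq, are described here. They were chosen with their counts and ratios already known, so their own differences are given as a description. The RNA came from C28/I2 cells, a human chondrocyte cell line, infected with a lentivirus at a multiplicity of infection of 10 and collected 72 hours later. Cells of the control group, labelled shvoid and of genotype WT, received the Void control virus, and cells of the other group, labelled shFGF9-D1 and of genotype FGF9 knock down, received an shRNA against FGF9. Both groups carried a lentivirus and neither had a further treatment. There was 1 library per group and 1 shRNA against FGF9, so no difference has a replicate check, and every interval below covers counting error between 2 libraries only.

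Glycolysis splits glucose into pyruvate, which yields ATP without oxygen. Cartilage has no blood vessels, and chondrocytes are known for drawing much of their ATP from this pathway. Phosphofructokinase, of which PFKM is the muscle type, phosphorylates fructose 6-phosphate at the main point of control, and GAPDH oxidizes glyceraldehyde 3-phosphate further down and is widely used as a reference gene. SENP1 is a protease that matures the small protein SUMO and removes it from target proteins. AC006064.4 is annotated as an antisense non-coding RNA and has no function known from its annotation.

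FGF9, the targeted gene, was at 0 in either library, and its knockdown could not be checked from these counts. Estimated counts summed to 519192 (shvoid) and 502774 (shFGF9-D1). With these totals a count of 0 allows up to 5.78 CPM (counts scaled to library size) in shvoid and 5.97 CPM in shFGF9-D1, if reads were assigned to the strand they came from. The kit was strand specific. The sources used here do not give the strand setting used for counting. Mitochondrially encoded genes took 18.5% of the counts in shvoid and 14.4% in shFGF9-D1. With TMM factors from nuclear genes alone, the log2 ratios below were 0.54 for GAPDH, 0.32 for AC006064.4, -1.05 for PFKM and -1.34 for SENP1. Of 16 chondrocyte markers, 3 reached 10 counts and 6 were at 0 in both libraries, COL2A1 (type II collagen) among them. The list summed to 57 counts in shvoid and 45 in shFGF9-D1, so the markers of the labelled cell type had few counts.

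The arrangement of each pair bears on what a count can stand for. GAPDH (ENSG00000111640) lies on the plus strand of chromosome 12 of GRCh38, from 6533927 to 6538374. AC006064.4 (ENSG00000269968) lies on the minus strand from 6537794 to 6538370, inside the 3′ end of GAPDH. Its 2 exons, of 230 and 192 bases, lie wholly inside GAPDH exons. All 422 bases of its 1 transcript are complementary to the longest GAPDH transcript, of 1875 bases, and 219 of them lie opposite its coding sequence. Its intron of 155 bases is not the mirror of the last GAPDH intron of 104 bases, since the ends differ by 11 and 40 bases. A further 2559 exon bases of GAPDH lie outside AC006064.4. Only the strand tells apart reads that lie wholly within a shared stretch. For this reason the coding end of GAPDH is shown next to the part of AC006064.4 opposite it. Both come from the GENCODE release 29 transcripts, span chr12:6537794-6538167 of GRCh38 and are written 5′ to 3′. In GAPDH the capitals mark bases also held by AC006064.4, and in AC006064.4 they mark the end of its exon 1, with exon 2 in lower case.
GAPDH: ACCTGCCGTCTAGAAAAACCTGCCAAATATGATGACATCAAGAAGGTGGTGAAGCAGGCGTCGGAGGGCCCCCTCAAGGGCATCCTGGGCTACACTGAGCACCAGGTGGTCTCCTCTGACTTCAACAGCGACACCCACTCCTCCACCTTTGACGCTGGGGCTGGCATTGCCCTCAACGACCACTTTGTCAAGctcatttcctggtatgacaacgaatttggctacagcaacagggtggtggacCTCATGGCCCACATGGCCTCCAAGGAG
AC006064.4: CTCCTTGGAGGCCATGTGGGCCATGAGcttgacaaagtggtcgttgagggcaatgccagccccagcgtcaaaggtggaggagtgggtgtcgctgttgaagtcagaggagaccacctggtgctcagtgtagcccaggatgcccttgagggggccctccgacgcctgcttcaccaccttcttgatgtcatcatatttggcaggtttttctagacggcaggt
The 51 lower-case bases of GAPDH fall within the intron of AC006064.4.

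PFKM (ENSG00000152556) lies on the plus strand of chromosome 12 from 48105139 to 48146404, and SENP1 (ENSG00000079387) on the minus strand from 48042898 to 48106308. The pair therefore lies head to head, and 1170 bases around the starts belong to both gene spans. Within them 628 exon bases in 3 stretches are shared, which is 8.58% of the PFKM exon bases and 9.90% of those of SENP1. The promoter windows of both genes (300 bases around an annotated start, from RefSeq on GRCh38.p14) overlap as well. Of 7 PFKM and 3 SENP1 windows, the pair that overlaps most is printed here, to show how much sequence the windows have in common. Each of the printed windows lies within the 1170 bases that belong to both gene spans. The window of PFKM is chr12:48105856-48106155 on the plus strand and that of SENP1 is chr12:48105806-48106105 on the minus strand. Both are written 5′ to 3′ on the strand of the gene, with the 250 shared bases in capitals.
PFKM: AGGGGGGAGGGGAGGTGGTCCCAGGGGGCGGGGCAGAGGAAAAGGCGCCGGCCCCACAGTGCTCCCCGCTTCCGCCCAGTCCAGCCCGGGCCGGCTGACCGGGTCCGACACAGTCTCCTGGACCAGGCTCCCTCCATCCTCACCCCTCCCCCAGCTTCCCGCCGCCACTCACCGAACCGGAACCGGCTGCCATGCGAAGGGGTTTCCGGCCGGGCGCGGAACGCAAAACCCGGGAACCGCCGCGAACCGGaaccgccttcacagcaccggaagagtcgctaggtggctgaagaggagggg
SENP1: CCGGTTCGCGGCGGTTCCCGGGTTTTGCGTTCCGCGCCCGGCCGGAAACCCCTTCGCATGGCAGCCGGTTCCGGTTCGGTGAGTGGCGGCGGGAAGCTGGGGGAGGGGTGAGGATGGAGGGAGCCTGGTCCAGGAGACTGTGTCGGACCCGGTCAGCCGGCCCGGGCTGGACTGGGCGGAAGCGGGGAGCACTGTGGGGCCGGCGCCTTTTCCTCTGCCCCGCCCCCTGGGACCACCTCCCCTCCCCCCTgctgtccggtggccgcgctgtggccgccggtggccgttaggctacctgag
The GC content was 71.3% in the PFKM window and 73.3% in that of SENP1, against a median of 58.7% over 35116 windows. The letters GGGCGG of a GC box, searched on both strands, were found 2 times, within the shared bases, and 45.0% of all windows hold them at least once. The letters TATAAA of a TATA box were found in neither window, and 11.5% of all windows hold them on either strand.

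**Figure D1:**
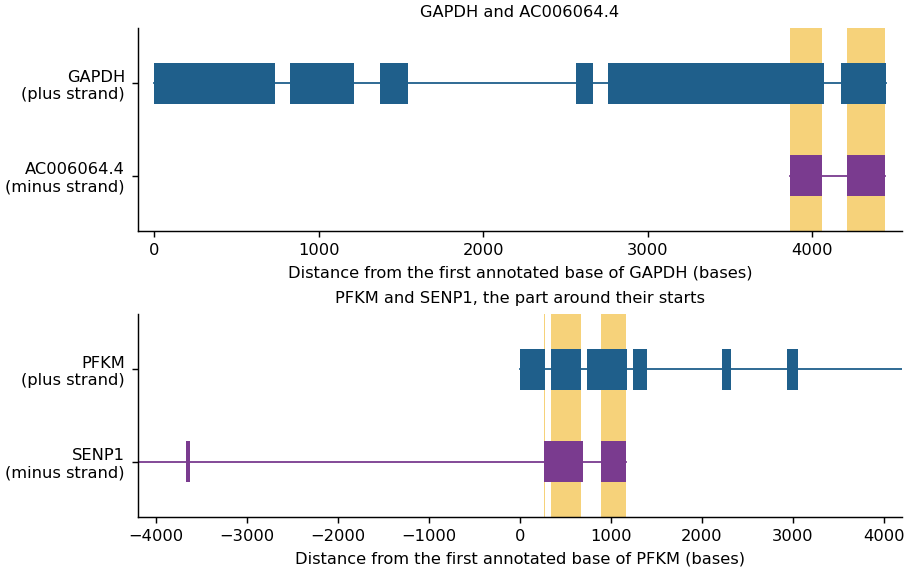
Annotated exons (boxes, all transcripts merged) of GAPDH and AC006064.4 (upper panel) and of PFKM and SENP1 around their starts (lower panel), by distance in bases from the first annotated base of GAPDH or PFKM. Yellow bands mark exon bases shared by both strands, 422 in the upper panel and 628 in the lower panel.

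AC006064.4 carried nearly all counts of its pair in both libraries. It had 1073 counts in shvoid and 1267 in shFGF9-D1, whereas GAPDH had 8 and 11. AC006064.4 thus held 99.3% of the pair's counts in shvoid (exact Clopper-Pearson 95% interval 98.5 to 99.7%) and 99.1% in shFGF9-D1 (98.5 to 99.6%). Per length the gap was wider still. The authors' FPKM (fragments scaled to transcript length and library size) for AC006064.4 was 3477 in shvoid and 4409 in shFGF9-D1, and that for GAPDH was 13.2 and 17.2. By FPKM, AC006064.4 ranked 36 of all genes in shvoid and 35 in shFGF9-D1. Whether its counts stand for an antisense RNA or for RNA of GAPDH was not tested.

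PFKM carried most counts of the other pair. PFKM had 92 counts in shvoid and 42 in shFGF9-D1, and SENP1 had 8 and 3. The share of PFKM was 92.0% in shvoid (interval 84.8 to 96.5%) and 93.3% in shFGF9-D1 (81.7 to 98.6%). The FPKM of PFKM was 396 in shvoid and 170 in shFGF9-D1, and that of SENP1 was 7.22 and 2.15. In this pair both genes are protein-coding, and the plus-strand gene has the counts, while in the other the counts lie on the minus strand.

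**Figure D2:**
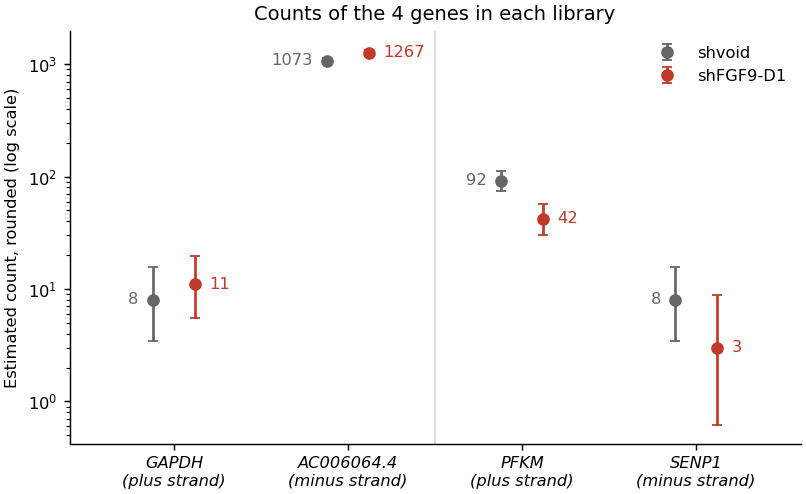
Rounded estimated counts (log axis) of the 4 genes in the shvoid (grey) and shFGF9-D1 (red) libraries, 1 library each and not scaled. Error bars give 95% intervals (exact Poisson) for counting error alone. AC006064.4, at 1073 and 1267, lies far above GAPDH, at 8 and 11, and PFKM, at 92 and 42, lies above SENP1, at 8 and 3.

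Such an uneven split was common among opposite-strand pairs. Across 1341 pairs of genes with shared exon sequence and at least 50 counts in each library, the gene with more counts held a median of 96.0% of the pair's counts in shvoid (interquartile range 83.0 to 99.4%). In shFGF9-D1 the median was 96.4%. The GAPDH pair was more one-sided than 73.1% of these pairs in shvoid and 69.9% in shFGF9-D1, and the PFKM pair more than 38.6% and 41.3%. With 45 counts in shFGF9-D1 the PFKM pair itself lay below the minimum of 50 set for these pairs.

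Between the libraries, AC006064.4 was slightly higher and PFKM lower in shFGF9-D1. After TMM scaling, AC006064.4 was 1.25-fold higher in shFGF9-D1 (log2 ratio 0.32, exact Clopper-Pearson 95% interval 0.20 to 0.44). Its interval excluded equal levels, but the difference was below 2-fold. GAPDH had a log2 ratio of 0.54 with an interval from -0.91 to 2.06, so a difference was not detectable at 8 and 11 counts. PFKM was 2.07-fold lower in shFGF9-D1 (log2 ratio -1.05, interval -1.61 to -0.51). SENP1 had a log2 ratio of -1.33 with an interval from -3.88 to 0.73, and at 8 and 3 counts a difference was not detectable either.

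To be called, a gene needed 10 counts or more in either library and a difference of 2-fold or more whose interval left out equal levels. Of the 4 genes, 3 reached 10 counts, which SENP1 did not. PFKM was called lower and none was called higher. Of the 4000 genes tested, 10.1% were called, 4.7% as higher and 5.38% as lower. PFKM lay close to the 2-fold limit. Among 598 genes with summed counts within 1.5 times those of PFKM, the nearest log2 ratios on either side of the limit were -1.003 and -0.985. In this group 16 genes had a lower log2 ratio than PFKM, and the ratios ran from -1.76 to 1.56. Of 76 genes with summed counts within 1.5 times those of AC006064.4, 18 had a higher log2 ratio, and their median was 0.16.

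**Figure D3:**
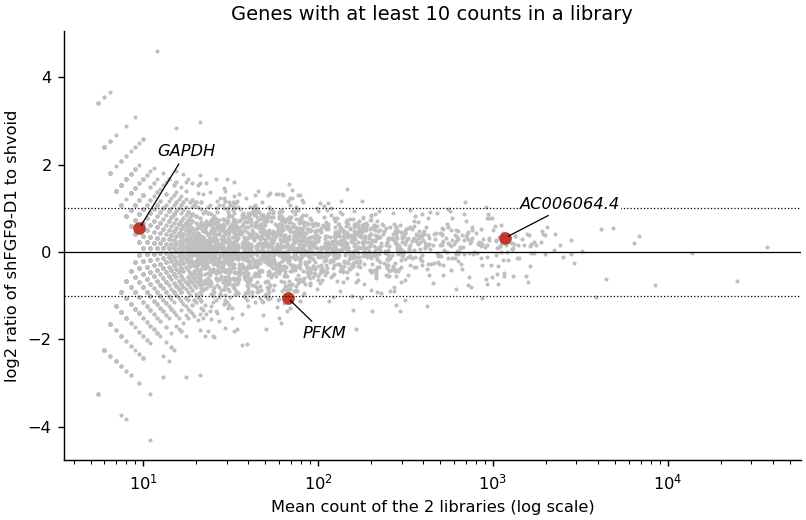
Log2 ratio of shFGF9-D1 to shvoid by mean count (log axis) for 3996 genes that reached 10 counts and were counted in both libraries. Red circles mark GAPDH at 0.54, AC006064.4 at 0.32 and PFKM at -1.05, and dotted lines mark 2-fold. SENP1 did not reach 10 counts.

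The split between the strands did not differ detectably between the libraries in either pair. The log2 odds ratio of AC006064.4 against GAPDH (shFGF9-D1 over shvoid, exact conditional estimate) was -0.22, with a 95% interval from -1.74 to 1.24. For PFKM against SENP1 it was 0.28, with an interval from -1.87 to 2.90. This measure does not depend on how the libraries are scaled, and its intervals leave room for differences of 2-fold and more. Within each pair both genes had a ratio of the same sign, positive for GAPDH and AC006064.4 and negative for PFKM and SENP1. Of 1698 opposite-strand pairs in which both genes had over 3 counts in a library and a count in both, 50.9% had ratios of the same sign. Summing both genes of a pair gave a log2 ratio of 0.32 (interval 0.21 to 0.44) for the GAPDH pair and -1.07 (interval -1.61 to -0.55) for the PFKM pair.

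The FPKM gave the same directions. The difference of log2(FPKM + 1) was 0.35 for GAPDH, 0.34 for AC006064.4, -1.22 for PFKM and -1.38 for SENP1. These values come from the same libraries and are no independent check.

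**Figure D4:**
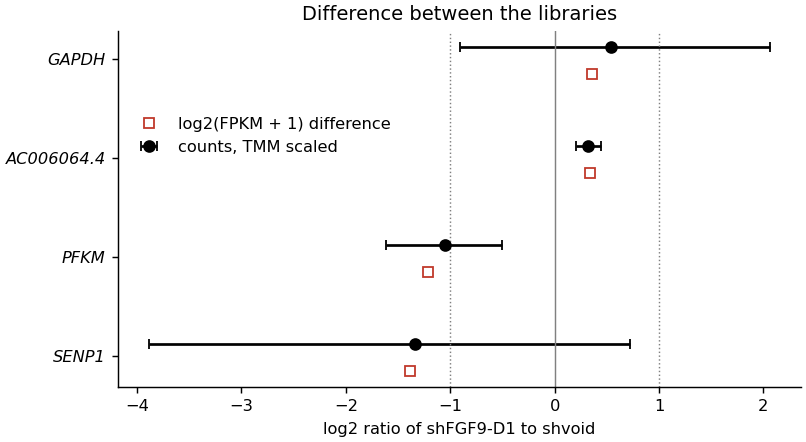
Log2 ratio of shFGF9-D1 to shvoid for the 4 genes, from TMM-scaled counts (black, with exact 95% intervals for counting error) and as the difference of log2(FPKM + 1) (red squares). The intervals of AC006064.4 (0.20 to 0.44) and PFKM (-1.61 to -0.51) exclude 0, and those of GAPDH and SENP1 include it.

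Counts and FPKM together show the length by which a gene's counts were scaled. A gene's count divided by its FPKM and by the library's total count gives an implied length. Among genes with 1 annotated transcript and at least 30 counts, the implied length was a median of 0.916 of the annotated length in shvoid (interquartile range 0.605 to 1.22, 500 genes) and 0.908 in shFGF9-D1 (0.627 to 1.18, 491 genes). For PFKM it was 447 bases in shvoid and 491 in shFGF9-D1. PFKM has 33 annotated transcripts, of which 21 are short, from 289 to 887 bases, and 12 are long, from 2529 to 3579 bases. Both implied lengths lay among the short transcripts. An exon base shared with SENP1 occurs in 5 of the 21 short transcripts and in 6 of the 12 long ones.

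The other genes differed in this respect. The implied length of AC006064.4 was 594 bases in shvoid and 572 in shFGF9-D1, above its annotated 422 and, as a ratio, above the interquartile range given. Among single-transcript genes of 300 to 500 bases, the ratio had a median of 0.707 in shvoid (interquartile range 0.530 to 0.953, 54 genes). In shFGF9-D1 that median was 0.721 (0.540 to 0.947, 56 genes). For GAPDH the implied length was 1164 and 1273 bases, within its transcripts of 390 to 1875 bases. For SENP1 it was 2135 and 2777 bases, within a range of 452 to 4967. The deposited FPKM table lists 1 locus for both genes of each pair, from 6533926 to 6538374 and from 48042897 to 48146404 on chromosome 12, with starts that count from 0. These loci equal the joint GENCODE spans of the pairs.

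Few of the nearest annotated genes had more than a few counts. Of the 3 genes on each side of the GAPDH pair, NCAPD2, a condensin subunit, had 533 counts in shvoid and 577 in shFGF9-D1 (log2 ratio 0.20, interval 0.02 to 0.37), and the other 5 had at most 2. IFFO1, whose span begins on the base after GAPDH ends, had 0 and 1. Around the PFKM pair, ASB8 had 7 and 6 counts and the other 5 genes had at most 2.

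Genes whose levels lay nearest in both libraries were found by Euclidean distance over log2(CPM + 1) in the 2 libraries. Those nearest to PFKM were AP006623.1 with 95 and 44 counts, AL360270.1 with 87 and 45, and ACOT13 with 89 and 46, at distances of 0.081 to 0.14. Those nearest to AC006064.4 were AC005523.2 with 1028 and 1248 counts, CTBP2 with 1004 and 1291, and VPS4A with 1158 and 1227, at distances of 0.066 to 0.12. SNRPA, IGFALS and SOCS2 were among several genes tied with GAPDH at 8 and 11 counts. With 2 libraries such likeness says little more than that counts are alike.

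Of 30 glycolytic enzyme genes, 27 had a count, 10 reached 10 counts, PFKM was called lower and none was called higher. That is 1 of 10, beside 10.1% called among all genes tested. The median log2 ratio of the 10 was -0.09, beside 0.04 over all 4000 genes tested. ENO3, the muscle enolase, had a ratio of the other sign than PFKM, with 81 counts in shvoid and 119 in shFGF9-D1 (log2 ratio 0.64, interval 0.22 to 1.06), and was below 2-fold. PGAM2, the muscle phosphoglycerate mutase, had 31 counts in each library (log2 ratio 0.08, interval -0.68 to 0.85). PGK1, phosphoglycerate kinase, had 49 and 38 counts, and PKM, pyruvate kinase, had 33 and 31. For both, the interval included equal levels.

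The remaining enzymes that reached 10 counts were close to that minimum. HK2, a hexokinase of the entry step, had 13 counts in shvoid and 8 in shFGF9-D1, and ALDOA, aldolase, had 12 and 10. ENO2, the neuronal enolase, had 7 and 10, and LDHA, which reduces pyruvate to lactate, had 11 and 5 (log2 ratio -1.06, interval -2.93 to 0.59). None of these differences was detectable at this depth. HK1, a hexokinase of most tissues, stayed below the minimum with 1 and 8 counts, but its interval excluded equal levels (log2 ratio 3.08, interval 0.18 to 8.55).

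In the phosphofructokinase, enolase and mutase families, the muscle types led by FPKM. These families were picked after the values were seen. PFKM took 98.7% of the phosphofructokinase FPKM in shvoid and 95.5% in shFGF9-D1, where PFKP, the platelet type, had an FPKM of 5.17 and 6.24 and PFKL, the liver type, 0 and 1.84. ENO3 took 93.5% and 96.3% of the enolase FPKM, with values of 252 and 386. ENO1, the enolase of most tissues, had 13.2 and 4.93. PGAM2 took 91.3% and 97.3% of the mutase FPKM, with 79.4 and 86.5, while PGAM1 had 4.01 and 2.36.

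Each of these muscle-type genes shares exon sequence with an opposite-strand gene. ENO3 shares 111 bases with PFN1, which encodes the actin-binding protein profilin, and PGAM2 shares all its 857 with DBNL, an actin-binding adaptor. As with SENP1, the partners had few counts, with 6 and 9 for PFN1 and 5 and 10 for DBNL. The implied length of ENO3, at 618 and 613 bases, was also at the short end of its transcripts of 343 to 1521 bases. That of PGAM2 was 752 and 713 bases, nearer its 857. For PGK1 it was 4182 and 3947 bases, and for PKM 2313 and 2718. These lay toward the long end of their transcripts, of up to 4887 and 3016 bases. Of other genes that led their family by FPKM in both libraries, ALDOA and GAPDH have an opposite-strand partner, while PGK1, PKM and LDHA have none. GAPDH was the reverse case, since its partner had the counts. Of 15 glycolytic enzyme genes with an opposite-strand partner, 12 had more counts than their partner, while GAPDH and TPI1 had fewer. For HK3, HKDC1 and ALDOC this rests on 1 count against partners at 0, and the same count over all opposite-strand pairs was not made. Nothing is therefore read from it for the list. TPI1, triose phosphate isomerase, had 2 and 5 counts, and SPSB2, which shares 14 bases with it, had 30 and 16.

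**Figure D5:**
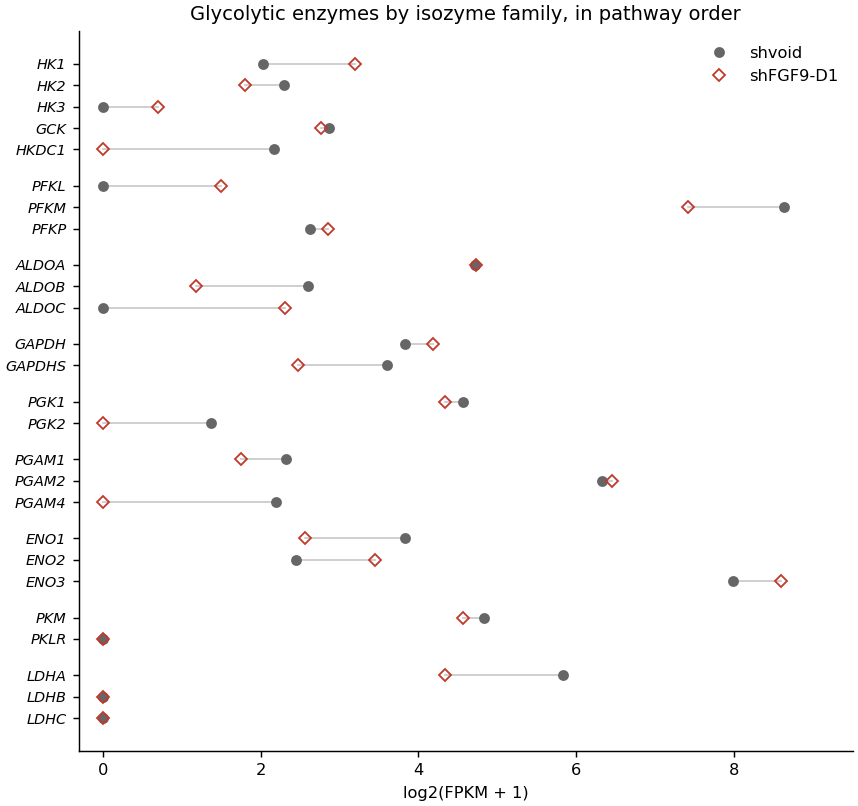
Log2(FPKM + 1) of glycolytic enzyme genes in the shvoid (grey circles) and shFGF9-D1 (red diamonds) libraries, grouped by isozyme family from hexokinases at the top to lactate dehydrogenases at the bottom. PFKM, ENO3 and PGAM2 lie far to the right of the other members of their families, and genes at 0 had an FPKM of 0.

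GAPDH was not alone among common reference genes in having few counts. Over 14 such genes the counts ran from 0 to 49 in shvoid and from 0 to 38 in shFGF9-D1. Of these genes 7 reached 10 counts and none was called, beside 10.1% of all genes tested. None of the 14 has an opposite-strand partner with shared exon sequence in the annotation used here.

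Around glycolysis, few transporter genes had enough counts to compare. Of 17 glucose and lactate transporter genes, 2 reached 10 counts and both were called lower, beside 5.38% of all genes tested. Both reached the minimum in shvoid alone, which favours a lower call, so nothing is read from this for the list. SLC2A12, a glucose transporter, had 24 counts in shvoid and 5 in shFGF9-D1 (log2 ratio -2.18, interval -3.93 to -0.76). SLC16A4, of the monocarboxylate transporter family, had 10 and 1 (log2 ratio -3.24, interval -8.68 to -0.43). Their opposite-strand partners had ratios of the other sign. TBPL1 had 168 and 229 counts (interval 0.24 to 0.82). LAMTOR5-AS1 had 5 and 12, and its interval (-0.26 to 3.20) included equal levels. None of 13 glycolysis regulators reached 10 counts, and the highest count among them was 5.

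SENP1 belongs to the SUMO proteases. Of a list of 10 genes of SUMO proteases and their relatives, 8 had a count and 1 reached 10 counts. That gene, SENP3, was called lower, with 11 counts in shvoid and 2 in shFGF9-D1, beside 5.38% of all genes tested. SENP3 too reached the minimum in shvoid alone, which favours a lower call. SENP2 had 6 and 5 counts, and each further member had at most 5. By summed counts SENP1 and SENP2 were level, behind SENP3, and none of the differences below the minimum was detectable.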

How the data were processed

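RNA-seq libraries of C28/I2 cells were available for shvoid and shFGF9-D1, 1 each. The build GRCh38.p14 and the tools Cuffdiff, Cufflinks 2.2.1, HISAT2 and bcl2fastq 2.1.7 are named in the submitters' processing notes. The authors deposited estimated counts per gene, not scaled between libraries, and FPKM, scaled for transcript length and library size. For the strand setting, annotation and filters, nothing was given in those sources.

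Rounded counts were scaled by TMM (edgeR 4.0.16, R 4.3.3), with factors of 1.01 for shvoid and 0.988 for shFGF9-D1. Ratios have exact Clopper-Pearson 95% intervals (scipy 1.17.1). Genes with at most 3 counts in both libraries have no fold. Coordinates and exon overlaps come from GENCODE release 29, which holds 57882 of the 58220 identifiers. Calling was tested on simulated data that held counting error only, without variation between cultures.

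The 4 genes and the 10 gene lists were chosen with earlier results of these data known. Genes named are the 4 genes, glycolytic enzymes and SUMO proteases with at least 10 counts, the leading genes of other lists, the 3 nearest genes on each side and the 3 closest in level. Others were named after their values were seen. Alternatives were other scalings, count minimums and folds, FPKM with a pseudocount of 1 or 0.1, and summed pairs. The pair background and the implied length were added after seeing the data. A test between conditions was not possible with 1 library each.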

Additional observations from a re-analysis of the deposited data

How the results depend on the processing

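No paired analysis was possible because each condition has 1 library. Under total counts, DESeq2 1.42.0 size factors, TMM over nuclear genes, summed pairs, and FPKM with a pseudocount of 1 or 0.1, each of the 4 genes kept the sign of its ratio and stayed within its interval. For GAPDH and SENP1 this says little, since their intervals are wide and their summed pairs hold mostly counts of the partner. The log2 ratio of PFKM ran from -1.22 to -1.05. As shares of FPKM, AC006064.4 took 99.6% of its pair in shFGF9-D1, and PFKM took 98.2% in shvoid and 98.8% in shFGF9-D1, which is above the interval of the count share and follows from dividing by length. The count of genes called fell from 188 higher and 215 lower to 119 and 130 with a minimum of 20 counts, which tests fewer genes, and rose to 389 and 329 at 1.5-fold. DESeq2 size factors were 1 in both libraries and gave 148 higher and 257 lower, and total counts gave 163 and 226. The median log2 ratio of the glycolytic enzymes stayed between -0.18 and -0.01. With 1 library per condition, differences between cultures and between conditions cannot be told apart.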

Other observations

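Beyond glycolysis, a list of genes for the entry of pyruvate into mitochondria and its first steps there showed no call, beside 10.1% of all genes tested. The carrier genes on it, MPC1 with 0 counts in both libraries and MPC2 with 9 and 8, stayed below 10 counts. Of the 16 genes listed, 6 reached 10 counts, and the median of their log2 ratios was -0.05. PC, the pyruvate carboxylase that makes oxaloacetate, led them with 157 counts in shvoid and 193 in shFGF9-D1 (log2 ratio 0.38, interval 0.07 to 0.69). Its opposite-strand partner LRFN4 had 4 and 1. PDHX, a structural part of the pyruvate dehydrogenase complex, had 36 and 51 counts, and PDHA1, its catalytic subunit, had 35 and 32. PDK2, a kinase that inhibits the complex, had 25 and 22, and SAMD14, which shares 2113 exon bases with it, had 332 and 331. For PDHX, PDHA1 and PDK2 the interval of the ratio included equal levels.

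Of 10 pentose phosphate enzyme genes, TKT, transketolase, was the 1 that reached 10 counts, with 11 in shvoid and 12 in shFGF9-D1. Of 19 genes of gluconeogenesis and glycogen, 2 reached 10 counts and neither was called, beside 10.1% of all genes tested. PYGB, the brain glycogen phosphorylase, had 25 and 22 counts and UGP2, which makes UDP-glucose, had 24 and 15. Among 18 genes of SUMO and its conjugation, 4 reached 10 counts and 1, RANBP2, was called lower, with 10 and 2 (interval -5.47 to -0.0096), beside 5.38% of all genes tested. RANBP2 reached the minimum in shvoid alone, which favours a lower call. PIAS1, a SUMO ligase, had 151 and 116 (log2 ratio -0.30, interval -0.66 to 0.06), and CALML4, which shares 3260 exon bases with it, had 145 and 167.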
